A study of Mus musculus with 24 samples.

Results

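The Hox genes of the A and B clusters and the TALE cofactors that pair with Hox proteins on DNA were followed in LSK cells of mouse pups, 29 genes out of 55414 with a row in the count files. They were chosen by name: the 10 HoxA genes Hoxa2, Hoxa3, Hoxa4, Hoxa5, Hoxa6, Hoxa7, Hoxa9, Hoxa10, Hoxa11 and Hoxa13, the 9 HoxB genes Hoxb1 to Hoxb9, and the 10 TALE genes Meis1, Meis2, Meis3, Pbx2, Pbx3, Pbx4, Pknox1, Pknox2, Tgif1 and Tgif2. Of the 29, 20 had counts high enough to be tested, and the other 9 (Hoxa6, Hoxa11, Hoxa13, Hoxb1, Hoxb3, Hoxb8, Hoxb9, Meis2 and Pknox2) are described by their levels alone. LSK cells are bone marrow cells that lack lineage markers and carry Sca-1 and Kit, the fraction that holds hematopoietic stem cells and multipotent progenitors. They were sorted by flow cytometry from pups aged 21 days, and each library was made from their polyadenylated RNA.

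The 4 groups of 6 libraries were female pups of Western-diet dams, female pups of control dams, male pups of Western-diet dams and male pups of control dams. The dams of all groups were C57BL/6J mice that ate either Western diet TD.88137 or the regular chow 2018SX from 4 weeks before mating through pregnancy and lactation. Each group had 2 libraries in each of 3 labelled batches. The labels name no dam, litter or number of pups behind a library, so a p-value here reflects how libraries vary, and some pups may share a litter.

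Hox genes encode homeodomain transcription factors that lie in clusters, numbered along the cluster by paralog group, and in embryos they are switched on in that order. In blood the HoxA genes of the middle and late groups are active in stem and progenitor cells and are silenced as cells differentiate, and HOXA9 is needed for normal progenitor numbers. TALE proteins are homeodomain factors with an insertion of 3 amino acids. MEIS and PBX proteins bind DNA together with Hox proteins, PKNOX proteins are MEIS relatives that also partner PBX, and TGIF proteins are repressors of the same superclass that recognise a MEIS-like site. HOXA9 with MEIS1 is best known as a pair that drives leukemia when both are overexpressed.

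The start regions of Hoxa7 and Meis1, which the diet comparison turned on, and of Hoxa9, the HoxA gene with the highest level per length, are shown for reference. Each is the RefSeq window of 250 bases before to 50 bases after the gene's start on GRCm38.p6, written 5′ to 3′ on the gene's own strand, with CpG dinucleotides in capitals.
Hoxa7 (chr6:52218524-52218823, minus strand): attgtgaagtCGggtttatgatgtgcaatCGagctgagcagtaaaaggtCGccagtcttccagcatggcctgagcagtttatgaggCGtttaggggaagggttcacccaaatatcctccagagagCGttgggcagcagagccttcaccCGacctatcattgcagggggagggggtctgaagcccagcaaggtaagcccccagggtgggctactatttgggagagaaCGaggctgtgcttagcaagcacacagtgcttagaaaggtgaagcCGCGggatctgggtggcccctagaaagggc
Meis1 (chr11:19018920-19019219, minus strand): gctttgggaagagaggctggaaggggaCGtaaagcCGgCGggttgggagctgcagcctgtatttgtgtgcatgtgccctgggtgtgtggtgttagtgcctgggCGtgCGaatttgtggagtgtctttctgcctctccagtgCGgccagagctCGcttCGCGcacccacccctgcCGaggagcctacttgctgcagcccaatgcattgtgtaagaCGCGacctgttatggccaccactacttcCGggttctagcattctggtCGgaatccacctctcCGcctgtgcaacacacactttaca
Hoxa9 (chr6:52227321-52227620, minus strand): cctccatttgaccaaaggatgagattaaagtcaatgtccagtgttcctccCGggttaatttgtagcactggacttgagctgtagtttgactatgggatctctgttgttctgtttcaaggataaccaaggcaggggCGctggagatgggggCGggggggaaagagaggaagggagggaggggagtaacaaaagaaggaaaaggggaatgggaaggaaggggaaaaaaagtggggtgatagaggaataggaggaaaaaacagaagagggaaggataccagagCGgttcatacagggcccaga
The windows held 9 CpG dinucleotides for Hoxa7, 15 for Meis1 and 4 for Hoxa9, where the median of 32817 mouse windows of this length was 7. A pair of letter strings were searched on both strands, TGACAG, the core bound by MEIS and TGIF proteins, and TGATNNAT, a joint PBX and Hox site. Neither string was found in these windows, and 19.18% and 8.86% of all windows hold them. Of the 29 genes, 19 had at least 1 window in the table, and of their 24 windows 4 held TGACAG (in Hoxa2, Hoxa3 and Tgif1) and 4 held TGATNNAT (in Hoxa2, Hoxb1, Hoxb8 and Tgif1). The data held no measurement of binding or methylation at these windows.

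Libraries held 38057263 to 51581968 counts in genes. Values are given as CPM (reads of a gene scaled to a library of fixed size, with TMM), and as CPM per kb of exon wherever genes are set against each other. As a check of the sort, Kit, which marks LSK cells, stood at 267 to 883 CPM over the 24 libraries and Cd34 at 227 to 953 CPM, while Ly6a, which encodes Sca-1, stood at 2.14 to 39.9 CPM. Markers of other cells were also present: the 10 mature erythroid genes, which a lineage-negative sort should leave out, summed to 843 to 8980 CPM, and the 8 T, NK and innate lymphoid genes to 129 to 415 CPM. In these bulk libraries fewer cells of a type and less RNA per cell cannot be told apart. On the first principal component 2 libraries lay far from the others, female controls 5 (-91.0) and 6 (-72.4), which are the batch 3 libraries of that group. On the second component male control 1 (-73.4), Western-diet female 6 (-69.8) and Western-diet female 3 (55.3) lay farthest out. Calls that rest on female controls 5 and 6 are given with and without them, and other values use all 24 libraries unless stated.

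Along the HoxA cluster the level was low at the early genes, highest at Hoxa7 and Hoxa9, and near 0 beyond Hoxa10. Hoxa2, Hoxa3 and Hoxa4 had medians of 0.119, 0.279 and 0.185 CPM per kb over the 24 libraries. Hoxa5 had a median of 1.03 CPM per kb and its neighbour Hoxa6 0.155 CPM per kb. Hoxa7, Hoxa9 and Hoxa10 then stood at 10.6, 15.1 and 3.60 CPM per kb, and Hoxa11 and Hoxa13, the genes beyond them, both had a median of 0. These last 2 genes, known for the limbs and the genital tract, had 0 counts in 18 and 21 of 24 libraries and never more than 3 counts. A count of 0 allows up to 3 counts, which is 0.0553 to 0.0835 CPM depending on the library, and this covers counting error only.

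Hoxa9 made up 49.4% of the cluster's summed level per kb, Hoxa7 33.4% and Hoxa10 11.6%. Per library, these 3 genes held 95.9 to 98.7% of the summed HoxA CPM (median 96.8%). The range of Hoxa9 was 46.7 to 138 CPM over all libraries and that of Hoxa10, a paralog also studied for its effect on progenitor growth, was 4.79 to 16.4 CPM. Over the 20.4% of Hoxa7 exon bases that overlap its antisense partner Hoxaas3, reads of these genes cannot be told apart in unstranded libraries. The counting set aside 4.41 to 5.20% of a library's total as ambiguous between genes. Levels per kb of overlapped genes, here and below, may therefore be too low. Hoxaas3 was counted at 1.27 to 2.44 CPM in Western-diet females.

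**Figure D1:**
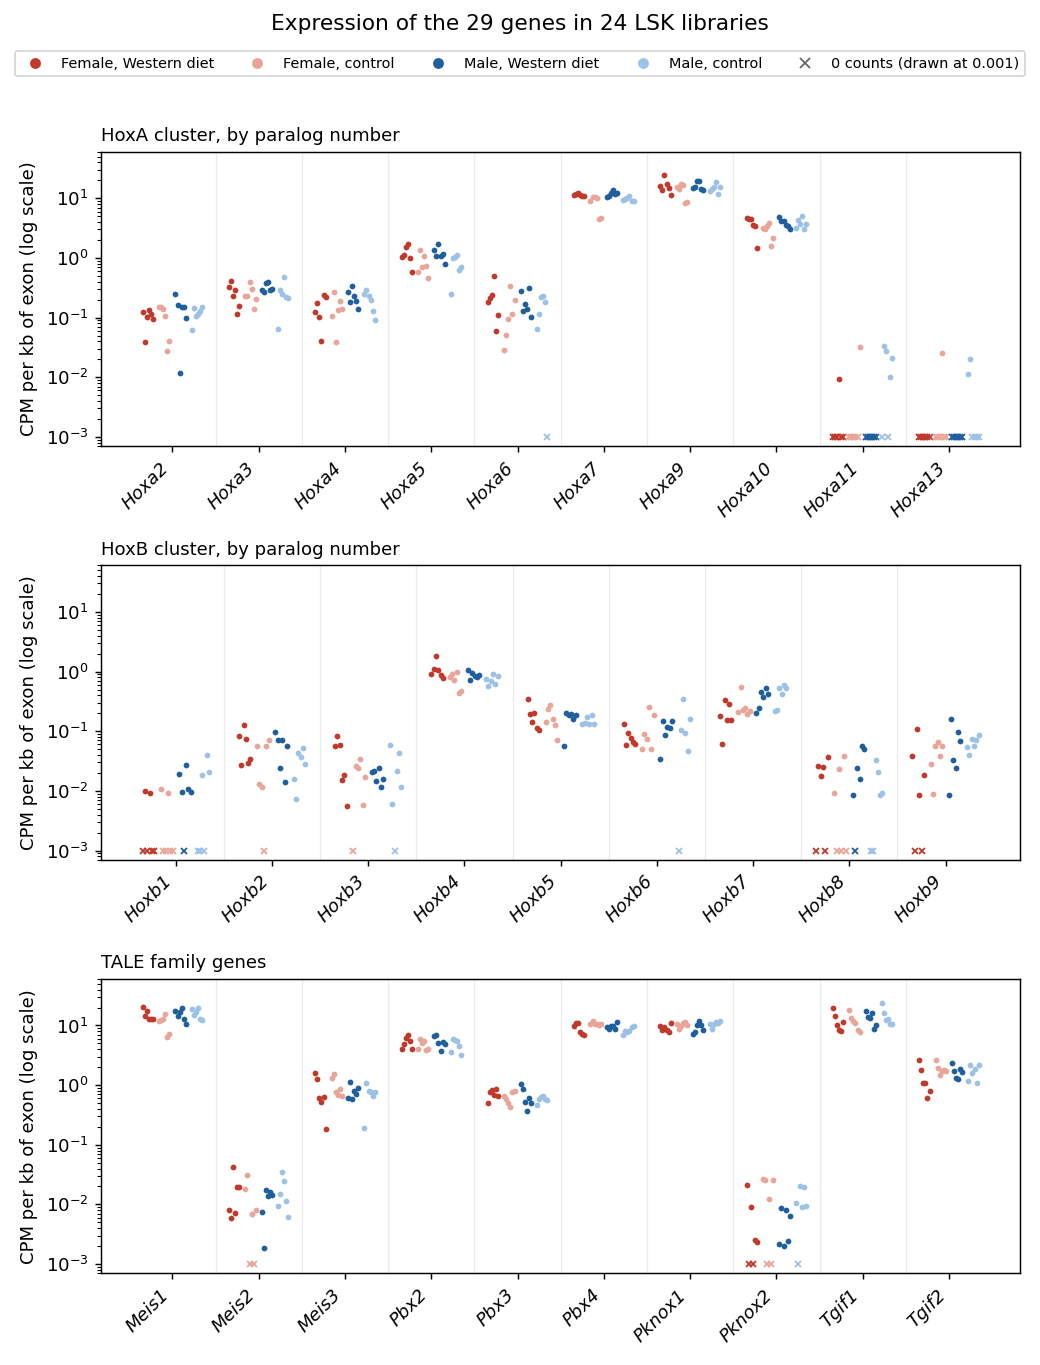
CPM per kb of exon (log scale) for each of the 29 genes, one point per library (6 per group), with HoxA and HoxB genes ordered by paralog number and TALE genes by name. Crosses at the lower edge mark libraries with 0 counts. By their medians Hoxa7, Hoxa9 and Hoxa10 stand above the other HoxA genes, Hoxb4 leads the HoxB cluster, and Hoxa11 and Hoxa13 lie mostly at 0.

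The HoxB cluster was expressed far lower. Summed over the cluster, HoxA exceeded HoxB by 15.27 to 26.99 times in CPM per kb per library (median 20.5), and by 28.01 to 48.24 times in CPM, which does not allow for length. Hoxb4, known for expanding stem cells when it is overexpressed, had the highest median of the cluster (0.833 CPM per kb) and made up 53.8% of its level per kb. Hoxb7 followed with a median of 0.247 CPM per kb, Hoxb5, a marker of long-term stem cells in mice, with 0.159 CPM per kb and Hoxb6 with 0.0925 CPM per kb. Hoxb2, Hoxb3, Hoxb8 and Hoxb9 had medians of 0.0125 to 0.0467 CPM per kb, and Hoxb1, the first gene of the cluster, had 0 counts in 12 of 24 libraries and at most 4. In counts, Hoxb4 had 45 to 203 per library and Hoxb7 4 to 40, so every HoxB value but that of Hoxb4 rests on few reads. Hoxb3 shares 52.9% of its exon bases with the antisense gene Hoxb3os.

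Among the TALE genes each family had 1 or 2 members at a high level. Meis1, the MEIS factor of stem cells, had a median of 13.7 CPM per kb, against 0.763 CPM per kb for Meis3 and 0.0125 CPM per kb for Meis2. Pbx4 (9.63 CPM per kb) and Pbx2 (5.12 CPM per kb) exceeded Pbx3 (0.6254 CPM per kb), the PBX member studied as a partner of HOXA9 in leukemia. Pknox1 stood at 10.04 CPM per kb and its paralog Pknox2 at 0.00838 CPM per kb. Tgif1 stood at 12.0 CPM per kb and Tgif2 at 1.70 CPM per kb, although 61.6% of Tgif2 exon bases overlap genes on the other strand. With the length of the longest transcript in place of all exons, Hoxa9 remained the highest of the 29 (26.1 CPM per kb) and Tgif1 (21.4 CPM per kb) passed Meis1 (19.1 CPM per kb).

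In female pups, maternal Western diet came with higher Meis1 and Hoxa7, and none of the 20 tested genes was called lower. Meis1 had 133, 144 and 218 CPM (lowest, median and highest) in Western-diet females, against 67.2, 127 and 162 CPM in control females. The groups overlapped, with 3 of the 6 Western-diet libraries between 133 and 138 CPM and the control range reaching 162 CPM. The means were 160 ± 33.9 CPM and 115 ± 36.7 CPM (SD, n = 6 each), and edgeR's quasi-likelihood test gave a log2 fold change of 0.52 ± 0.12 (SE), or 1.43-fold (adjusted p = 0.0134).

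Hoxa7 had 30.9, 32.5 and 35.6 CPM (lowest, median and highest) in Western-diet females, against 12.8, 27.4 and 30.3 CPM in control females. Here every Western-diet library lay above every control library, which held for 0.469% of all 19616 tested genes. The log2 fold change was 0.51 ± 0.15 (SE), or 1.43-fold (edgeR adjusted p = 0.0404). The lowest Western-diet value (30.9 CPM) and the highest control value (30.3 CPM) were close, and the size of the difference came mostly from 2 control libraries at 12.8 and 13.4 CPM. These calls made 2 of 20 tested genes, both higher, where 5.42% of all tested genes were called in females, 2.2% as higher and 3.22% as lower. The median log2 fold change of the 20 was 0.10, against 0.03 over all tested genes, with 14 positive and 6 negative.

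**Figure D2:**
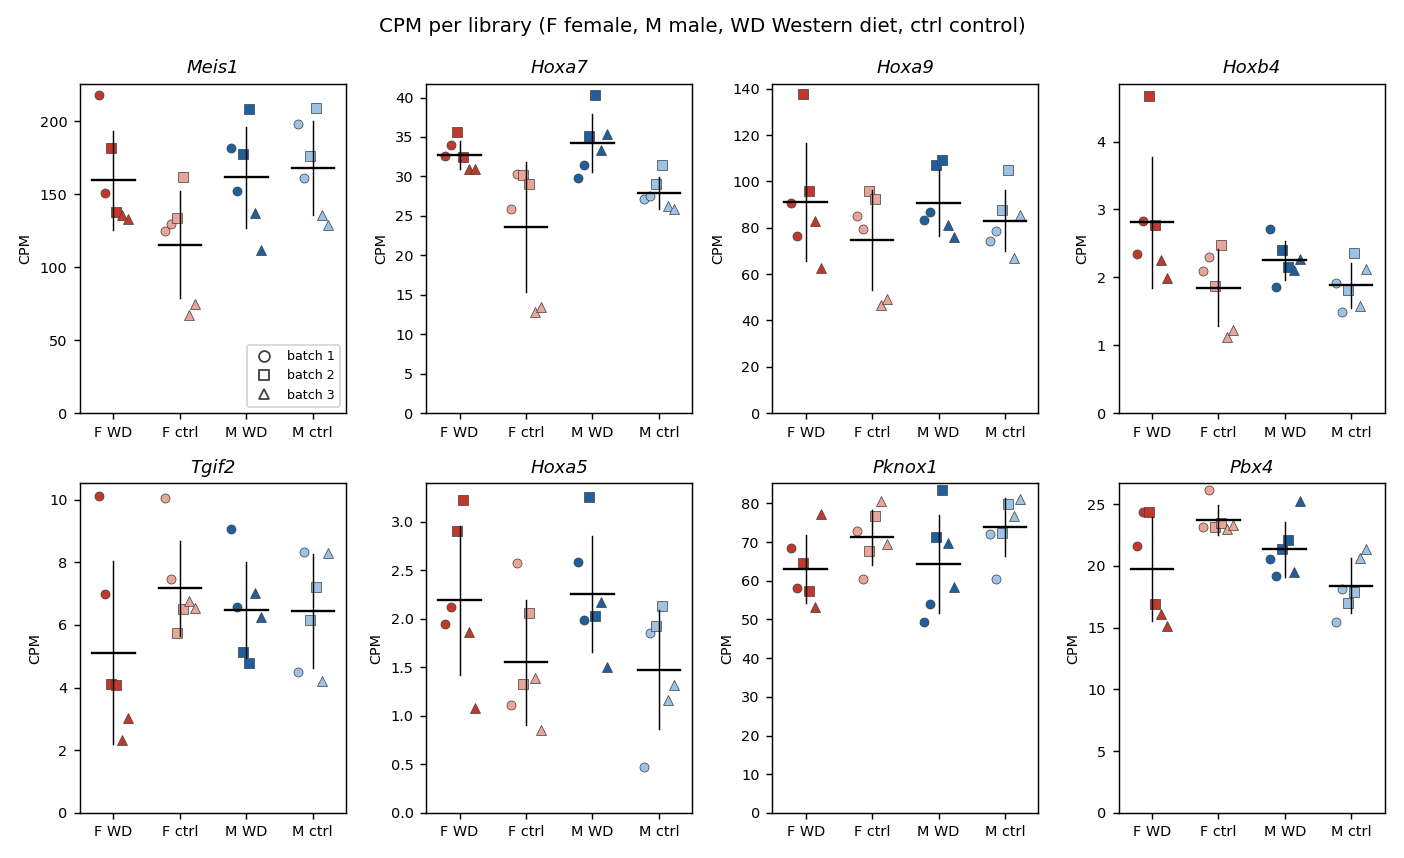
CPM in each library for the 8 genes among the 5 smallest p-values of either diet comparison, by sex (F, M) and maternal diet (WD Western diet, ctrl control). Marker shapes give the batch, horizontal lines the mean and vertical lines the SD of 6 libraries. Female control libraries 5 and 6 (triangles) are the lowest of all 24 for Meis1, Hoxa7, Hoxa9 and Hoxb4.

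Behind these, 3 more genes had the smallest p-values in females without passing the threshold. Hoxb4 had 1.99, 2.55 and 4.68 CPM (lowest, median and highest) in Western-diet females and 1.12, 1.99 and 2.48 CPM in control females, a fitted log2 difference of 0.60 ± 0.19 (SE, edgeR adjusted p = 0.0672). Without both outlying female controls that difference was 0.40 (edgeR adjusted p = 0.474). Hoxa9 had 62.9, 86.7 and 138 CPM in Western-diet females and 46.7, 82.3 and 95.8 CPM in control females, a fitted log2 difference of 0.30 ± 0.12 (SE, edgeR adjusted p = 0.151). For both genes the groups overlapped, and Western-diet library 3 was the highest of its group. Tgif2 had 2.33, 4.10 and 10.1 CPM in Western-diet females and 5.74, 6.64 and 10.1 CPM in control females, a fitted log2 difference of -0.57 ± 0.23 (SE, edgeR adjusted p = 0.160). For Tgif2, 4 of the 6 Western-diet libraries lay below every control library, and the batch 1 libraries of both diets overlapped.

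Fold changes along the HoxA cluster were positive for all 7 tested genes in females, from 0.03 (Hoxa2) to 0.51 (Hoxa7) on the log2 scale. Without female control libraries 5 and 6, Hoxa2 had -0.43 and Hoxa3 -0.0027, and the other 5 were positive, from 0.11 (Hoxa9) to 0.40 (Hoxa5). The 95% interval of Hoxa10, which had 0.36, ran from -0.0069 to 0.72, and that of Hoxa5, with 0.46, from -0.10 to 1.02. In the HoxB cluster the signs were mixed, with Hoxb2 at 0.90 (95% interval -0.37 to 2.16), Hoxb5 at 0.14, Hoxb6 at -0.44 and Hoxb7 at -0.59 (-1.33 to 0.15). Among the cofactors Pbx2 had 0.16, Pbx3 0.23 and Tgif1 0.04, while Meis3 had -0.33, Pbx4 -0.26 (95% interval -0.52 to -0.0040) and Pknox1 -0.17. Pbx4 passed an unadjusted p of 0.05 and not the adjusted one (edgeR adjusted p = 0.227). In all, 6 of the 20 had an unadjusted p under 0.05, against 21.3% of all tested genes.

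**Figure D3:**
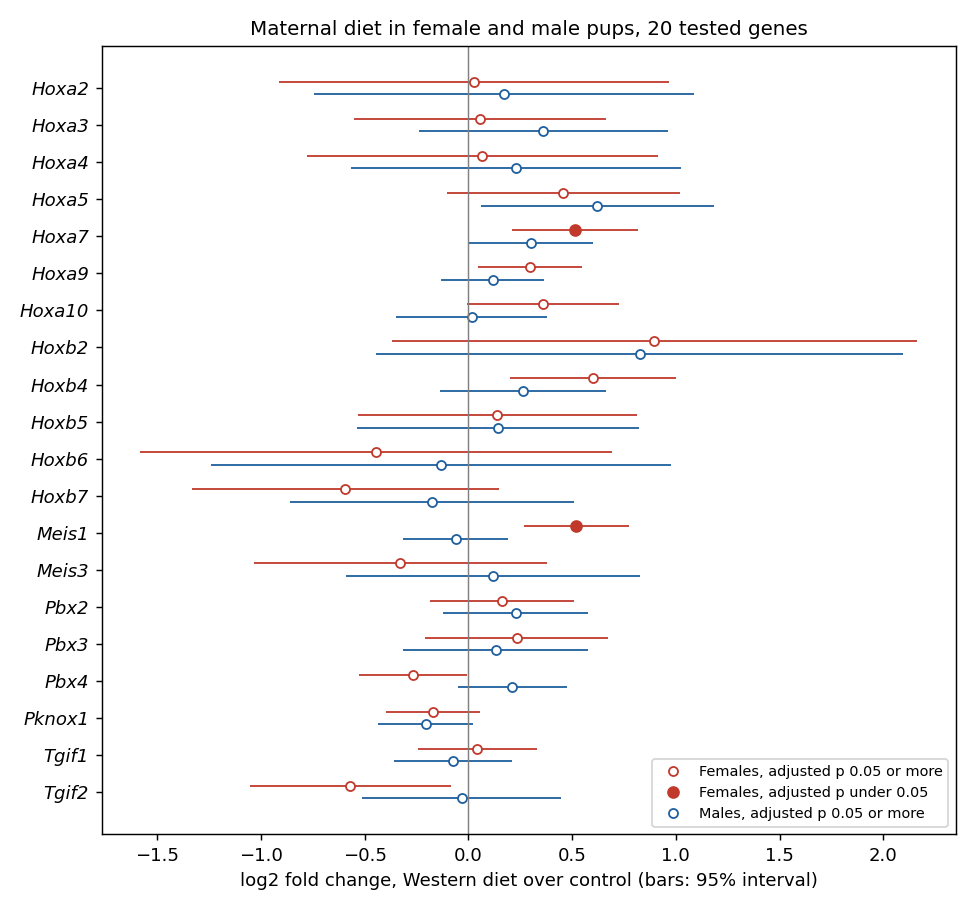
Fitted log2 fold changes of Western diet over control for the 20 tested genes, in cluster order and then TALE genes, in females (red, upper of each pair) and males (blue). Bars are 95% intervals, and filled points have an edgeR adjusted p under 0.05, which only Hoxa7 and Meis1 in females reach. The 7 HoxA points of females lie right of 0 with all libraries in the fit.

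Both female calls were lost without the pair of outlying control libraries. Library 5 and library 6 had 67.2 and 75.0 CPM of Meis1, against 125 to 162 CPM in the other 4 control females, and 46.7 and 49.2 CPM of Hoxa9, against 79.5 to 95.8 CPM. They held the 2 lowest values of all 24 libraries for 4 of the 20 tested genes (Hoxa7, Hoxa9, Hoxb4 and Meis1), where the same was true of 7.85% of all tested genes. For none of the 20 did they hold the 2 highest values, which they did for 6.55% of all tested genes. Without the pair, none of these genes was called in females, and 154 genes were called in all, against 1064 with it. The log2 fold change of Meis1 was then 0.36 (edgeR adjusted p = 0.258) and that of Hoxa7 0.20 (edgeR adjusted p = 0.394). Of the 20 genes, 16 kept their sign, and the number with a positive value was 10 without the pair and 14 with it.

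The same pair differed in markers of other cells. The 9 LSK markers summed to 1056 and 1049 CPM in libraries 5 and 6, the 2 lowest sums of all 24, against 1532 to 1963 CPM in the other control females. The 10 markers of erythroid and megakaryocyte progenitors, a branch that leaves the stem cell stage, summed to 3621 and 3652 CPM, the 2 highest of all 24, against 1407 to 2207 CPM in the other control females. The pair also had the 2 lowest sums of all 24 for the granulocyte and monocyte, B cell, T, NK and innate lymphoid, and endothelial markers, and for 22 targets of HOXA9 and MEIS1. Over the groups, that progenitor list summed to 788 to 1386 CPM in Western-diet females and 1407 to 3652 CPM in control females, with 6 of its 10 genes lower and none at 0, where 3.22% of all tested genes were called lower. The 10 mature erythroid genes summed to 843 to 3022 CPM in Western-diet females and 1854 to 8980 CPM in control females, with 5 of 10 lower and none at 0. The 10 granulocyte and monocyte genes summed to 3833 to 12400 CPM in Western-diet females and 2457 to 5727 CPM in control females, with 0 of 9 tested genes called and Ly6g at 0 in all control females. Without the pair, 5 progenitor genes and 3 mature erythroid genes were still lower. The part of these cell markers in the Meis1 and Hoxa7 differences was not tested.

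Within batches, the direction of the female difference held for Hoxa7 and Meis1 and its size did not. Hoxa7 differed between the diets by 0.25, 0.20 and 1.23 in batches 1, 2 and 3 (mean log2 CPM, 2 libraries per group), and Meis1 by 0.51, 0.10 and 0.92. Hoxa9 differed by 0.02, 0.29 and 0.59, and Hoxb4 by 0.22, 0.73 and 0.83. Batch 3, which holds the pair, gave the widest difference for each of these 4 genes. In females 6 of the 20 genes were higher in all 3 batches (Hoxa5, Hoxa7, Hoxa9, Hoxa10, Hoxb4 and Meis1) and 4 were lower in all 3 (Meis3, Pbx4, Pknox1 and Tgif2). The share over all tested genes was not counted, so these counts cannot be called particular to the 20 genes.

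**Figure D4:**
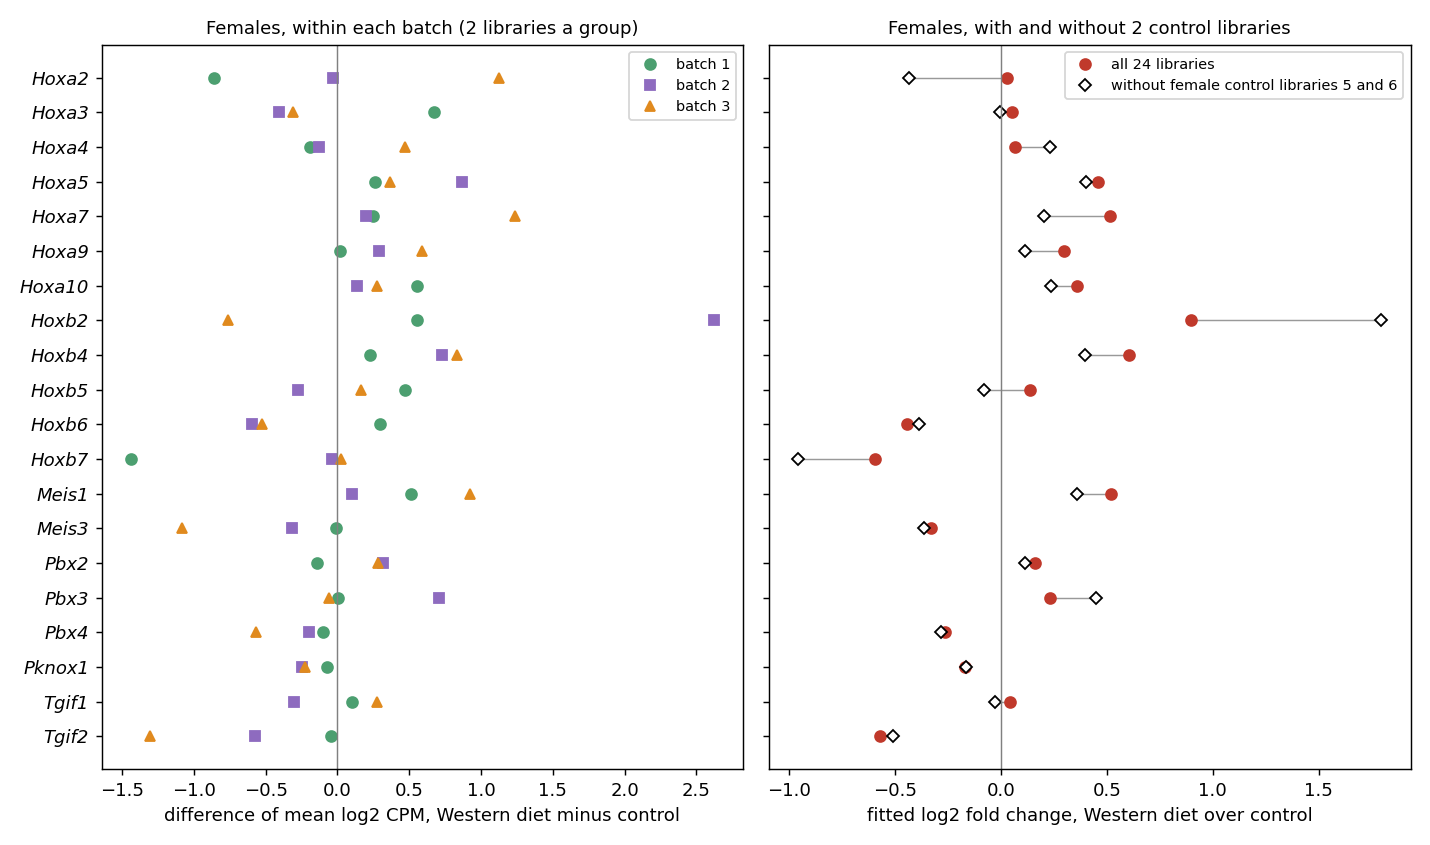
Left, the difference of mean log2 CPM between Western-diet and control females within each batch (2 libraries per group) for the 20 tested genes. Right, the fitted log2 fold change with all 24 libraries (filled) and without female control libraries 5 and 6 (open). Hoxa7 and Meis1 have their widest difference in batch 3, and both move towards 0 without the pair.

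In male pups no gene of the 20 was called for maternal diet, and 0.0102% of all tested genes were (2 genes). At an unadjusted p under 0.05 there was 1 of the 20, Hoxa5, against 8.45% of all tested genes, and DESeq2 and limma-voom also called none. Hoxa5, a HoxA gene needed for lung development, had 1.5, 2.10 and 3.26 CPM (lowest, median and highest) in Western-diet males and 0.473, 1.59 and 2.14 CPM in control males, a fitted log2 difference of 0.62 ± 0.27 (SE, edgeR adjusted p = 0.532). The groups overlapped, and male control library 1, at 0.473 CPM, was the lowest of all 24. The 10 mature erythroid markers summed to 1315 to 3470 CPM in Western-diet males and 3180 to 7260 CPM in control males, with none called, all 10 at an unadjusted p under 0.05 and a median log2 fold change of -1.22. The 10 erythroid and megakaryocyte progenitor markers summed to 899 to 1340 CPM in Western-diet males and 1098 to 2940 CPM in control males, with 1 called lower and 5 at an unadjusted p under 0.05. The part of these cell markers in the male values was not tested.

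Hoxa7 in males had 29.8, 34.2 and 40.4 CPM (lowest, median and highest) with Western diet and 25.9, 27.4 and 31.4 CPM in controls (log2 fold change 0.30, 95% interval -0.00032 to 0.60, edgeR adjusted p = 0.590). Only the lowest 2 Western-diet males lay within the control range. Pknox1 had 49.2, 64.0 and 83.5 CPM in Western-diet males and 60.6, 74.6 and 81.0 CPM in control males, a fitted log2 difference of -0.21 ± 0.11 (SE, edgeR adjusted p = 0.630). Pbx4 had 19.2, 21.0 and 25.3 CPM in Western-diet males and 15.5, 17.99 and 21.3 CPM in control males, a fitted log2 difference of 0.21 ± 0.13 (SE, edgeR adjusted p = 0.672). Hoxb4 had 1.85, 2.21 and 2.72 CPM in Western-diet males and 1.496, 1.87 and 2.36 CPM in control males, a fitted log2 difference of 0.26 ± 0.19 (SE, edgeR adjusted p = 0.735). Each of these groups overlapped. Meis1 had 112, 165 and 208.5 CPM in Western-diet males and 129, 168 and 208.8 CPM in control males, a fitted log2 difference of -0.06 (95% interval -0.31 to 0.19).

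Averaged over the sexes, Hoxa7 was the gene of the 20 that passed (log2 fold change 0.41 ± 0.10 SE, 1.33-fold, edgeR adjusted p = 0.0198), where 5.7% of all tested genes were called. Without the female control pair it was still called. In the same comparison 8 of 10 mature erythroid markers and 6 of 10 erythroid and megakaryocyte progenitor markers were lower, and both counts were the same without the pair. Their part in the Hoxa7 difference was not tested. Next by p were Hoxb4 (log2 fold change 0.43 ± 0.14, edgeR adjusted p = 0.0631) and Hoxa5 (0.54 ± 0.19, edgeR adjusted p = 0.0982). Hoxa5, Hoxa7, Hoxa9 and Hoxb4 were the genes with a positive difference in all 3 batches of females and in all 3 of males. How many of all tested genes had this was not counted.

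Whether the diet effect differed between the sexes was tested as the male minus the female effect. Neither any of the 20 nor any other gene was called (0% of all tested genes), while 2 of the 20 and 8.32% of all tested genes had an unadjusted p under 0.05. DESeq2 and limma-voom also called none of the 20. Meis1 differed by -0.58 (95% interval -0.94 to -0.22, edgeR adjusted p = 0.589) and Pbx4 by 0.48 (0.11 to 0.85, edgeR adjusted p = 0.589). The female effect that enters the Meis1 value was 0.52 with all libraries and 0.36 without the outlying female control pair. The Meis1 difference between the sexes had an interval that leaves out 0 and was not called after adjustment. The call of Meis1 in females and not in males is therefore no called difference between the sexes. For Hoxa7 the interval ran from -0.64 to 0.21.

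Male and female pups did not differ by a call in any of the 20 genes. In Western-diet pups 0.0816% of all tested genes were called, 1 of the 20 had an unadjusted p under 0.05 against 6.75% of all (Hoxb7, log2 male over female 0.93 ± 0.35, edgeR adjusted p = 0.717), and DESeq2 and limma-voom called none of the 20. In control pups 0.112% of all tested genes were called and 4 of the 20 had an unadjusted p under 0.05, against 13.2% of all. Meis1 had 129, 168 and 208.8 CPM (lowest, median and highest) in control males and 67.2, 127 and 162 CPM in control females (log2 0.58 ± 0.12, edgeR adjusted p = 0.0632). DESeq2 and limma-voom each called Meis1 in that comparison, and without the female control pair the log2 value was 0.41 (edgeR adjusted p = 0.768). Pbx4 had -0.36 ± 0.13, Hoxa10 0.44 ± 0.18 and Tgif1 0.29 ± 0.14 on the log2 scale, male over female controls. Without the female control pair these values were -0.39, 0.31 and 0.21.

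The batches differed in several of these genes, in about the same share as over all tested genes. A test of any difference between the 3 batches called 5 of the 20 genes, where 24.2% of all tested genes were called. Tgif1, a TALE repressor, was lower by 0.85 on the log2 scale in batch 3 than in batch 1, with 43.6 to 65.1 CPM in batch 3 and 76.4 to 132 CPM in batch 1, and those ranges did not overlap (edgeR adjusted p = 8.1e-05). Meis1 had a batch 3 minus batch 1 value of -0.53 and Hoxa10 of -0.56. Hoxa9 had 0.34 for batch 2 and -0.27 for batch 3 relative to batch 1, and Tgif2 had -0.57 and -0.58. Since each batch holds 2 libraries of every group, batch was fitted beside the groups.

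The genes around the clusters were followed through lists of regulators, targets and neighbours. Of 36 upstream regulators, mainly the MLL complexes that keep Hox genes active and the Polycomb proteins that silence them, 33 were tested. In females 1 was lower and none higher (median log2 0.03), a share no larger than the 5.42% called over all tested genes. That gene, Mllt3, an MLL partner that sustains stem cells, had 37.9 to 52.9 CPM in Western-diet and 47.0 to 83.4 CPM in control females, a fitted log2 difference of -0.44 ± 0.13 (SE, edgeR adjusted p = 0.0477). In males none of the 33 was called, with 1 at an unadjusted p under 0.05, against 8.45% of all tested genes. Averaged over the sexes 2 of the 33 were called, where 5.7% of all tested genes were, a similar share. Mllt3 was lower and Kmt2a, the MLL methyltransferase itself, was higher (log2 fold change 0.30 ± 0.08, edgeR adjusted p = 0.0266). Neither was called without the female control pair. The homeobox genes Cdx1, Cdx2 and Cdx4, which switch on Hox genes in embryonic blood, had at most 3 counts in any library.

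Of 22 genes bound or regulated by HOXA9 and MEIS1 in mouse leukemic progenitors, all were tested, and in females 5 were higher and 2 lower (median log2 0.35), where 2.2% of all tested genes were called higher and 3.22% lower. Sox4 (log2 fold change 0.58 ± 0.12) and Camk2d (0.70 ± 0.16) were among the higher ones, together with Mecom, a stem cell factor (0.55 ± 0.13), Myb and Dnmt3b. Gfi1b, which drives erythroid and megakaryocyte development, was lower (-1.23 ± 0.20, edgeR adjusted p = 0.000714), as was Trib2. Gfi1b also belongs to the list of erythroid and megakaryocyte progenitor markers, and Mecom to the LSK list. Without the female control pair only Gfi1b was called. In males none of the 22 was called, and 3 had an unadjusted p under 0.05, against 8.45% of all tested genes.

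Of 18 HoxC and HoxD genes 2 were tested, Hoxc10 and Hoxd8, and the whole list summed to 0.278 to 1.37 CPM per library. Of 10 antisense, intergenic and microRNA genes of the clusters 3 were tested, Hoxaas2, Hoxaas3 and Hoxb5os. None of these 5 was called in females or in males, and none had an unadjusted p under 0.05. Their log2 fold changes in females were 0.47 for Hoxaas2, 0.12 for Hoxaas3 and 0.50 for Hoxb5os, against -0.19 for Hoxc10 and -0.76 for Hoxd8.

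Across the 24 libraries, 4 pairs of genes were compared on log2 CPM after group and batch means were removed. The permutations treated the 24 remaining values as independent, which they are not once means are removed. Their p-values are therefore too small, and adjusted values not far below 0.05 may not hold. Hoxa9 and Hoxb4, which lie on different chromosomes, were positively correlated (Pearson r = 0.72, permutation p = 8e-05, adjusted 0.00032; Spearman rho = 0.66, permutation p = 0.00057, adjusted 0.00228). Without the 2 libraries farthest from the median of Hoxa9 r was 0.59, without the female control pair 0.66, and within batches 0.32, 0.83 and 0.90 (8 libraries each). Here and for the other genes, the means removed stayed those of all 24 libraries. An r without the female control pair is therefore not free of its influence, and the batch 3 values include it. Hoxa9 and Meis1 had r = 0.48 (permutation p = 0.0169, adjusted 0.0260) and rho = 0.44 (permutation p = 0.0319, adjusted 0.0425). For that pair r was 0.59 without the 2 farthest libraries, 0.36 without the female control pair, and 0.37, 0.48 and 0.59 within batches. Meis1 and Pbx3 were negatively correlated (r = -0.47, permutation p = 0.0195, adjusted 0.0260; rho = -0.55, permutation p = 0.00672, adjusted 0.0134), with r = -0.48 without the 2 farthest libraries, -0.42 without the control pair and -0.53, -0.50 and -0.36 within batches. Hoxa9 and Pbx3 had r = -0.13 (permutation p = 0.536, adjusted 0.536) and rho = -0.21 (permutation p = 0.330, adjusted 0.330), with r = -0.26 without the 2 farthest libraries and -0.18, 0.12 and -0.39 within batches. When the means of each group within each batch were removed instead, the rank correlations of both Hoxa9 pairs no longer passed. Hoxa9 with Hoxb4 then had r = 0.50 (adjusted permutation p = 0.0465) and an adjusted Spearman permutation p of 0.167, with r = 0.22 without the 2 farthest libraries and -0.71 within batch 1. Hoxa9 with Meis1 had r = 0.46 (adjusted permutation p = 0.0465) and an adjusted Spearman permutation p of 0.167, with r = 0.28 without the 2 farthest libraries. Meis1 with Pbx3 had r = -0.30 (adjusted permutation p = 0.199) and an adjusted Spearman permutation p of 0.344, so neither passed. For that pair r was 0.03 without the 2 farthest libraries, and -0.70, -0.16 and 0.64 within batches. Libraries share depth and cell makeup, and the part of either in these correlations was not tested.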

How the data were processed

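Whole-number read counts per gene were used as deposited. FastQC, cutadapt, STAR, HTSeq, DESeq2 and the build GRCm39 are named in the submitters' processing notes. Versions, strand setting and annotation were not given in the sources used here. Per the labels' protocols the libraries came from a low-input polyadenylated RNA kit, which does not mark strand. The closing HTSeq lines, which name no gene, equalled 31.0 to 39.3% of a library's total and were left out. Names, exon lengths and overlaps came from a GRCm38 annotation.

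Libraries were scaled by TMM, genes with low counts removed (filterByExpr, 19616 of 55414 kept), and all 24 libraries fitted with group and batch in edgeR 4.0.16 (robust quasi-likelihood, R 4.3.3). P-values were adjusted by Benjamini-Hochberg over all tested genes, and a gene was called at an adjusted p under 0.05. Intervals of 95% use each gene's SE and the t quantile at its test's degrees of freedom. Total counts per library ranged from 38057263 to 51581968. Within-library levels are CPM, computed from the deposited counts. The log2 CPM behind the correlations and within-batch differences had a prior count of 2. Correlations used two-sided permutation tests. The fit was tested on simulated data. No 2 libraries of a group agreed within sampling noise.

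The genes and lists were chosen with earlier results of these data known. Genes were described in full where called, or where among the 5 smallest p-values of a diet comparison with fewer than 5 calls, and up to 4 called genes of every other list were named with values. Alternatives were DESeq2 1.42.0, limma-voom (limma 3.58.1), other scalings, filters, batch terms and left-out libraries. Leaving out both outlying female controls for the gene lists was chosen after seeing the data.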

Additional observations from a re-analysis of the deposited data

Results flagged for a closer look

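In 4 of 80 groups of 6 libraries (20 tested genes, 4 groups) the gap between 1 library and its nearest neighbour, divided by the group's range, exceeded Dixon's 95% critical value for 6 values. Chance gives about 1 in 20 such groups. Hoxb4 stood at 4.676 CPM in Western-diet female 3, against 1.987 to 2.826 CPM in the other 5 Western-diet females. Hoxb5 stood at 0.156 CPM in Western-diet male 1, against 0.4455 to 0.5652 CPM in the other 5 Western-diet males. Hoxb7 stood at 0.8505 CPM in control female 2, against 0.2988 to 0.3777 CPM in the other 5 control females. Pbx4 stood at 26.14 CPM in the same control female 2, against 23.03 to 23.46 CPM in the others.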

How the results depend on the processing

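Of the 20 tested genes, 2 were called for diet in females. The number was 1 with limma-voom, 1 without batch 2, and 0 without a batch term, with only the female groups fitted, without batch 3, within batch 1, within batch 2 and without both outlying controls. Other settings added genes. DESeq2 also called Hoxb4 as higher (DESeq2 adjusted p = 0.0261). Tgif2 was called lower without batch 1 (log2 -0.96, edgeR adjusted p = 0.0196), where Meis1 lost its call. It was also called lower within batch 3 (log2 -1.32, edgeR adjusted p = 0.0328). Leaving out 1 library gave 0 to 3 (0 without female control 5 or 6), and all-gene calls of 504 to 1386 around 1064, against 1776 with DESeq2 and 2023 with no filter. Averaged over the sexes, where 1 was called, DESeq2 gave 2, limma-voom 3, and no batch term, leaving out batch 2 or batch 3, batch 1 alone and batch 2 alone gave 0. Leaving out 1 library gave 0 (without Western-diet male 6) to 3 (without control female 2). Male against female controls went to 1 (Meis1) with no filter, DESeq2, limma-voom, only those groups fitted or the share of reads in no feature as covariate, and 0 to 1 with 1 library left out. Batch calls, 5, were 8 with no filter, 9 with limma-voom, 3 without batch 2, 2 without batch 3, 3 without the control pair and 4 to 8 with 1 library left out. Diet in males, the sex difference in diet effect and sex in Western-diet pups gave 0 in every alternative. With group-by-batch means removed, r was 0.20 for Hoxa9 with Pbx3 and -0.30 for Meis1 with Pbx3, which lost its call. The rank correlations of Hoxa9 with Meis1 and with Hoxb4 lost their call too. The residuals of the 2 libraries in each group and batch then mirror each other, so those p-values are also too small. The causes of these changes were not tested. Of 4707 values for single genes, 0 called values turned sign, 399 uncalled ones did, 21 gained and 39 lost a call. Hoxa7 in females lost its call in 14 of 24 runs that left out 1 library, and Meis1 in 3.

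Replicate numbers were not shown to pair the libraries: of 12 same-numbered pairs, 9 had a correlation of deviations from group means above 0.1 (-0.029 to 0.354), and 4 did once batch means were also removed. After that removal both pairs of a sex and batch hold the same value, so the 12 are not separate values. With the replicate block in place of batch, 1 gene (Meis1) was called in females.

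Genes of the HoxB cluster other than Hoxb4 had few counts, and differences there were not detectable at this depth unless large. Litters and pooling of pups are not given.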

Other observations

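Kdm6a, an X-linked demethylase of the regulator list, was lower in males than in females with Western diet (log2 -0.71, edgeR adjusted p = 2.46e-05) and with control diet (log2 -0.79, edgeR adjusted p = 3.68e-06). Mecom was higher in control males than in control females (log2 0.76, edgeR adjusted p = 0.00743), and was not called there without the outlying control pair.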
